A study of Homo sapiens with 3 samples.

Results

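The genes described here encode matrix metalloproteinases (MMPs), the ADAM and ADAMTS metalloproteases, and the tissue inhibitors of metalloproteinases (TIMPs). They were chosen by symbol, with earlier results of these data known. Each is a transcript cluster listed with a single symbol of the form MMP, ADAM, ADAMTS or TIMP followed by a number. The brightest cluster was used where a gene had more than 1. This gave 58 genes of the 14410 with a symbol of their own: 22 MMP, 15 ADAM, 17 ADAMTS and 4 TIMP genes. ADAM10, ADAM17, ADAM8, ADAM2, ADAM21 and ADAMTS20 were listed only on clusters with several symbols. These genes, and ADAM6, ADAM7 and ADAMTS7, were not analysed here.

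Total RNA of 3 human cell lines was hybridised to exon arrays, 1 for each line. HT-29 comes from a colon adenocarcinoma; it was kept in McCoy's 5A medium with serum and received 200 U/ml of IFN-γ (interferon gamma, a cytokine of the antiviral and inflammatory response) for 24 h. MDA-MB-436, a breast adenocarcinoma line, was grown in L-15 medium with serum. MCF10A, mammary epithelial cells that do not form tumours, grew in DMEM/F12 medium with horse serum, epidermal growth factor (EGF), hydrocortisone, cholera toxin and insulin. No untreated HT-29 array was used here, so line, medium and cytokine cannot be told apart in any difference from HT-29. Line and medium cannot be told apart between MDA-MB-436 and MCF10A either, where MCF10A alone received EGF, hydrocortisone, cholera toxin and insulin. Each line is a single culture, no test was possible, and every value below describes these 3 arrays.

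MMPs are zinc-dependent proteases that cut collagens and other matrix proteins; most are secreted as inactive precursors, and the membrane-type MMPs stay on the cell surface. ADAMs are membrane proteins, many of which release the outer part of growth factors and receptors, while ADAMTS enzymes are secreted and cut proteoglycans, procollagens and other matrix proteins. TIMPs bind the active site of MMPs and block it, and TIMP3 also blocks some ADAM and ADAMTS enzymes. Epithelial cells are known for a narrow set of MMPs such as MMP7, and mesenchymal cells for MMP2.

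Intensity is the deposited value per transcript cluster on a linear scale. Background was the 95th percentile of 228 olfactory receptor genes, an intensity of 29.9, and the highest value of any olfactory receptor gene was 101. The marker lists were chosen with earlier results of these data known, so their values describe the arrays and are not an independent check of the lines. Of the intestinal markers, 5 of 6 were above background in HT-29 (summed intensity 6187), against 2 in MDA-MB-436 (139) and 2 in MCF10A (455), and CDH17 was under background in all lines. Of 3 measured basal mammary markers, 2 were above background in HT-29 (SERPINB5 and CDH3, summed intensity of the 3 genes 185), 0 in MDA-MB-436 (50.1) and 3 in MCF10A (6862), whereas KRT5, KRT17 and TP63 were not analysed here. Of 4 mesenchymal markers chosen for MDA-MB-436, 1 was above background in HT-29 (390), 4 in MDA-MB-436 (4134) and 3 in MCF10A (2029). Among them VIM did not set the mammary lines apart, at 21.0 in HT-29, 2038 in MDA-MB-436 and 1933 in MCF10A, and BGN was at 341, 1318 and 49.3 in the same lines. Of 6 fibroblast markers, 2 were above background in HT-29 (COL1A1 and COL1A2), 1 in MDA-MB-436 and 1 in MCF10A. Their summed intensity lay between 125 and 133 in the 3 lines, and no endothelial marker was above background. Of 4 measured leukocyte markers only CD14 was above background, and it was so in all lines, at 38.9 in HT-29, 86.5 in MDA-MB-436 and 156 in MCF10A. PTPRC was between 3.05 and 4.16.

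Of the 58 genes, 34 were above background on at least 1 array, 11 on all 3 and 24 on none. By line, 19 genes were above background in HT-29, 28 in MDA-MB-436 and 15 in MCF10A, which is 32.8%, 48.3% and 25.9% of the members. Of all 14410 genes 66.6%, 68.8% and 65.0% were above background in the same lines. Many members lay near the background, and against the 99th percentile of olfactory receptor genes, 60.6, the counts were 8 in HT-29, 16 in MDA-MB-436 and 7 in MCF10A. On at least 1 array, 15 of the 58 exceeded the highest olfactory receptor value of 101. Shares of all genes above 60.6 or 101 are not given here. Just above the background were ADAMTS10 and ADAMTS12, with highest values of 32.6 and 33.99, and just under it were ADAMTS17 and MMP17, with 29.7 and 28.6.

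**Figure D1:**
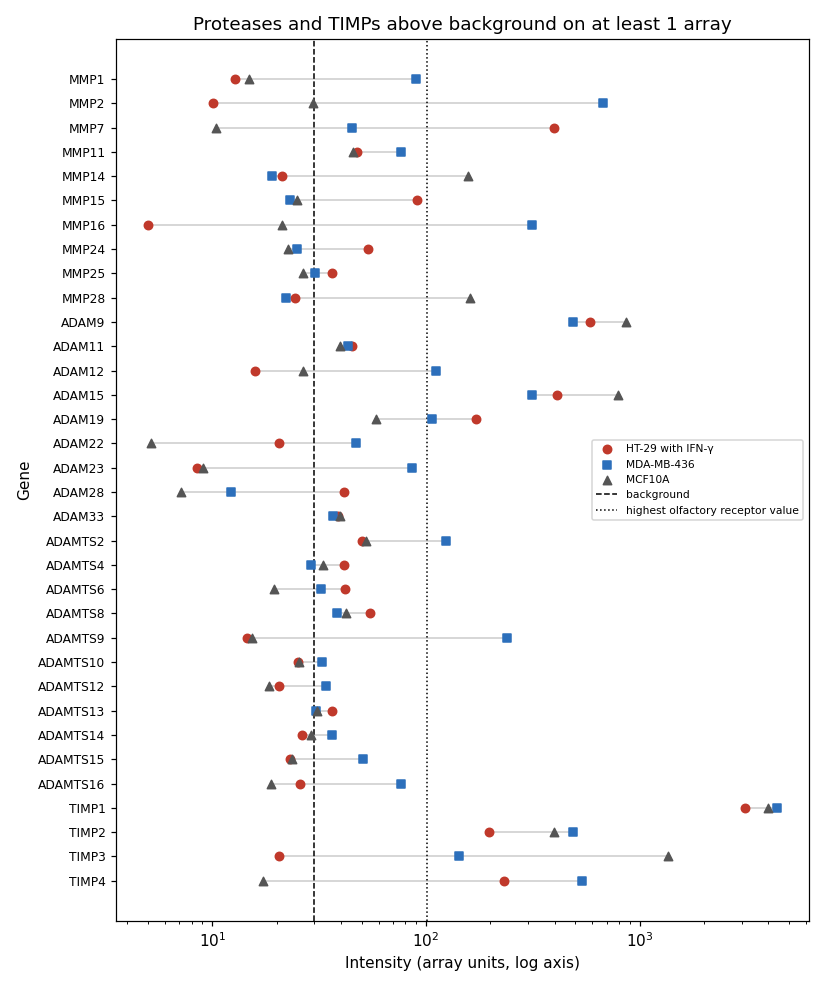
Intensity on a log axis of the 34 genes above background on at least 1 array, with 1 point per line, the background of 29.9 (dashed) and the highest olfactory receptor value of 101 (dotted). MMP2, MMP16 and ADAMTS9 lie far to the right in MDA-MB-436 only, MMP7 in HT-29, and MMP14 and MMP28 in MCF10A. TIMP1, TIMP2, ADAM9 and ADAM15 are above 101 in every line.

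A gene was called when its intensities differed at least 4-fold and the higher one was above background. Between MDA-MB-436 and MCF10A, 10 of 58 members were called higher in MDA-MB-436 and 3 lower, or 17.2% and 5.17%, where 3.65% and 2.01% of all genes were called. The median log2 difference was 0.27 over the members and 0.018 over all genes, and after quantile normalization it was 0.019 and -0.051. The 10 higher genes were MMP1, MMP2, MMP7, MMP16, ADAM12, ADAM22, ADAM23, ADAMTS9, ADAMTS16 and TIMP4, and the 3 lower were MMP14, MMP28 and TIMP3. In all 10 cases the MCF10A value was under background, so a fold is only a lower bound, computed against the background of 29.9 and written as "at least". With values under background set to it, 4 remained called higher, MMP2, MMP16, ADAMTS9 and TIMP4, with 2.13% of all genes called, and all 3 remained called lower, with 1.7% of all genes called. In 5 of the 10 the MDA-MB-436 value did not exceed 101.

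Between HT-29 with IFN-γ and MCF10A, 3 members were called higher in HT-29, MMP7, ADAM28 and TIMP4, and 3 lower, MMP14, MMP28 and TIMP3. Each count is 5.17% of the members, where 4.34% of all genes were called higher and 3.5% lower, so the members' shares lay near those of all genes. With values under background set to it, MMP7 and TIMP4 remained higher and all 3 remained lower, with 3.42% and 2.76% of all genes called. The median log2 difference was 0.054 over the members and 0.11 over all genes. Between HT-29 with IFN-γ and MDA-MB-436, MMP7 was the 1 member called higher, where 4.21% of all genes were called. There were 7 called lower, or 12.1%, where 4.68% of all genes were called: MMP1, MMP2, MMP16, ADAM12, ADAM23, ADAMTS9 and TIMP3. With values under background set to it, MMP7 remained higher and 4 remained lower (MMP2, MMP16, ADAMTS9 and TIMP3), with 3.59% and 3.15% of all genes called. The median log2 difference was 0.039 over the members and 0.076 over all genes. The 3 comparisons share arrays, so a gene that is high in 1 line can be called in both comparisons with that line. ADAM22, ADAM28 and ADAMTS16, each above background in 1 line only, were called against MCF10A alone.

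Read by line and by measured intensity, 6 members were 4-fold or more above both other lines in MDA-MB-436, where 2.16% of all genes were. These were MMP1, MMP2, MMP16, ADAM12, ADAM23 and ADAMTS9. In MCF10A there were 3 (MMP14, MMP28 and TIMP3), where 0.881% of all genes were, and in HT-29 there was 1 (MMP7), where 2.46% were. By the same measure TIMP3 in HT-29 was 4-fold or more under both other lines, as 1.7% of all genes were. MMP7 and TIMP4 were so in MCF10A, as 1.03% of all genes were. In MDA-MB-436 0 members were, against 0.819% of all genes. Computed against the background, MDA-MB-436 was only at least 2.99-fold over both other lines for MMP1, 3.74-fold for ADAM12 and 2.87-fold for ADAM23. MMP7 in MCF10A was only at least 1.503-fold under MDA-MB-436.

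**Figure D2:**
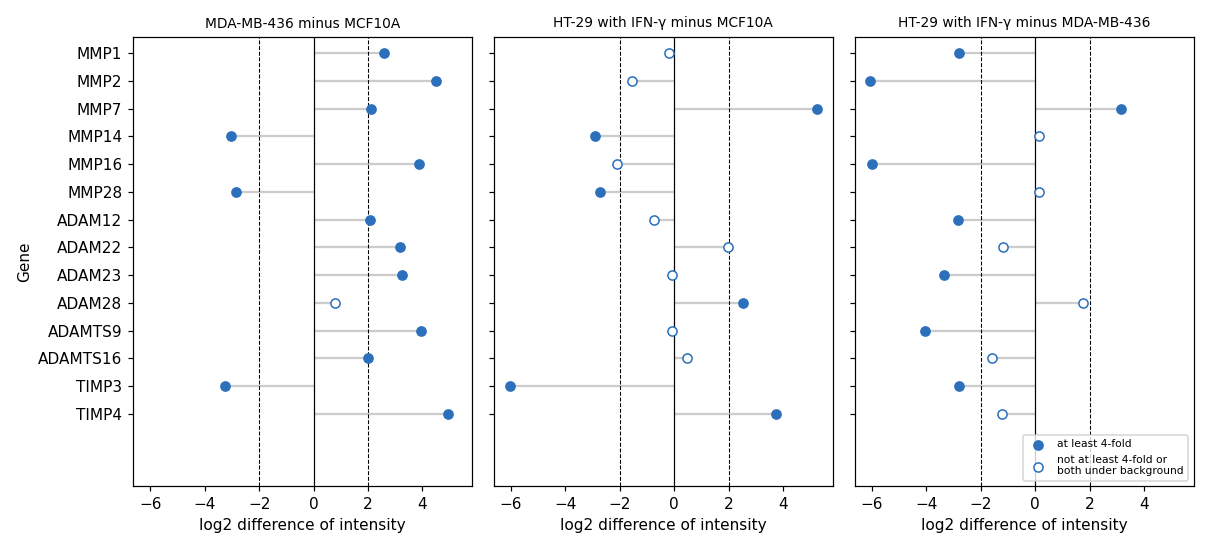
Log2 difference of measured intensity (horizontal axis) for the 14 genes called in any comparison, in 3 panels with dashed lines at 4-fold; filled points are called and open points are not. In the left panel 10 genes lie to the right of the upper line and MMP14, MMP28 and TIMP3 to the left of the lower one, and in the right panel MMP2 and MMP16 lie farthest left, at -6.07 and -5.98. Their HT-29 values were under background, so these positions are not measured sizes, and the values support only at least 22.5-fold and at least 10.5-fold.

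The inhibitors differed from one another in where they were expressed. TIMP1, which blocks most secreted MMPs but acts weakly on several membrane-type MMPs, had an intensity of 3107 in HT-29, 4395 in MDA-MB-436 and 3991 in MCF10A. The 3 values lay close together, 1.41-fold apart at most. TIMP2, which besides inhibiting MMPs takes part in the activation of the MMP2 precursor by MMP14, was at 197 in HT-29, 490 in MDA-MB-436 and 399 in MCF10A. HT-29 was the low line, 2.02-fold under MCF10A and 2.48-fold under MDA-MB-436, short of a 4-fold difference in both cases.

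TIMP3 is bound to the matrix and also blocks ADAM17 and several ADAMTS enzymes. Its intensity was 20.5 in HT-29, 143 in MDA-MB-436 and 1354 in MCF10A. MCF10A was the high line, MDA-MB-436 stood in between, and HT-29 was under background. TIMP3 in MDA-MB-436 was 9.46-fold under its MCF10A level. It was at least 45.3-fold lower in HT-29 than in MCF10A and at least 4.78-fold lower in HT-29 than in MDA-MB-436. TIMP4, known for its expression in heart and fat, had the reverse order among the mammary lines. It was at 232 in HT-29, 537 in MDA-MB-436 and 17.3 in MCF10A. Over MCF10A, where TIMP4 was under background, the MDA-MB-436 value was at least 17.9-fold and the HT-29 value at least 7.77-fold higher.

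**Figure D3:**
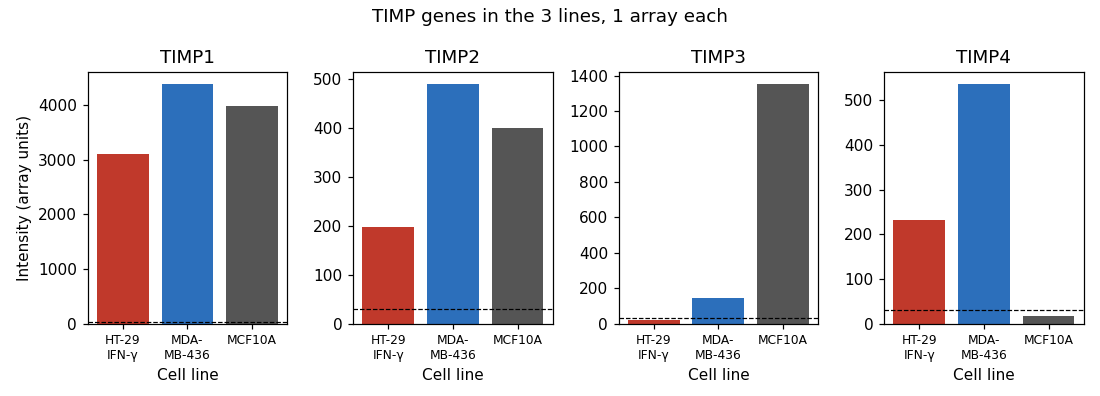
Intensity of the 4 TIMP genes in the 3 lines, with 1 bar per array, each panel on its own linear axis from 0, and the background as a dashed line. TIMP1 and TIMP2 are above background in every line, TIMP3 is tallest in MCF10A at 1354, and TIMP4 is tallest in MDA-MB-436 at 537 and under the line in MCF10A.

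In the RefSeq annotation, TIMP1, TIMP3 and TIMP4 lie within the synapsin genes SYN1, SYN3 and SYN2, which encode synaptic vesicle proteins. The host of TIMP1, SYN1, was under background in all lines, between 27.8 and 29.0. The host of TIMP4, SYN2, was at 23.4 in HT-29, 59.3 in MDA-MB-436 and 17.6 in MCF10A. SYN2 was thus above background only in MDA-MB-436, where TIMP4 was also at its highest, but at a value under 101. In HT-29, TIMP4 was at 232 while SYN2 was under background. SYN3 was not analysed here. Whether probes of a host gene added to a TIMP value was not tested.

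The 250 bases before the start of these 3 genes are shown because TIMP1 was high in every line while TIMP3 and TIMP4 differed between lines. The sequences are from RefSeq (GRCh38.p14), 5′ to 3′ on the gene's strand, and each ends at the base before the annotated start. Capitals mark exact matches on either strand to GGGCGG (the GC box), TGAGTCA (the AP-1 motif) and TATAAA (the TATA box). TIMP1 is at chrX:47582186-47582435 on the plus strand, TIMP3 at chr22:32801455-32801704 on the plus strand and TIMP4 at chr3:12158913-12159162 on the minus strand.
TIMP1: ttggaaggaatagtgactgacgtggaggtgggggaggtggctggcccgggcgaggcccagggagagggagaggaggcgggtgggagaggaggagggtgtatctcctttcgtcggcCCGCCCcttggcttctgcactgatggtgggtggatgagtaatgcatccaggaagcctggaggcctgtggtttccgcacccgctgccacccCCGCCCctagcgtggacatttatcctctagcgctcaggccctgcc
TIMP3: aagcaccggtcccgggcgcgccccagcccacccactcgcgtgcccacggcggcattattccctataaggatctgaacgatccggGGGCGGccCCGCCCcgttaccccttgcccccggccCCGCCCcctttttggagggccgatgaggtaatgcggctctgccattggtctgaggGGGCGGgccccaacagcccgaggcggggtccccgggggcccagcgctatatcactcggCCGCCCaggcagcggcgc
TIMP4: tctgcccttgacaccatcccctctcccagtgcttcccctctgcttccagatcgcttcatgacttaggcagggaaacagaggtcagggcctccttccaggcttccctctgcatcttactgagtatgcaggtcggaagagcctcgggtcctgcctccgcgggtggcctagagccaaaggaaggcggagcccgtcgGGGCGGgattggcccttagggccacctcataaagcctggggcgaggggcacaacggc
TIMP3 held 5 GC box matches and 26 CG dinucleotides, TIMP1 2 matches and 12 dinucleotides, and TIMP4 1 match and 11 dinucleotides. None of the 3 held the AP-1 or the TATA letters in this window. The GC box letters were found in 42.3% of the 27305 upstream windows in the RefSeq table, the AP-1 letters in 4.16% and the TATA letters in 11.1%. A match describes the letters and is not a shown binding site.

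Among the secreted collagenases and stromelysins, 2 of 6 were above background on any array. MMP1, the interstitial collagenase that opens fibrillar collagen, was at 12.8 in HT-29, 89.5 in MDA-MB-436 and 14.8 in MCF10A. Only MDA-MB-436 was above background, at a value under 101, and MMP1 was there at least 2.99-fold higher than in either other line (6.05-fold over MCF10A and 6.996-fold over HT-29 by measured intensity). MMP11, a stromelysin that is activated inside the cell by furin, was at 47.8 in HT-29, 76.6 in MDA-MB-436 and 45.7 in MCF10A, all under 101. MMP3, MMP8, MMP10 and MMP13 lay between 2.81 and 19.8 on all arrays.

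Gelatinases cut denatured collagen and basement membrane collagen. MMP2, the gelatinase typical of mesenchymal cells, was at 10.0 in HT-29, 674 in MDA-MB-436 and 29.6 in MCF10A. MDA-MB-436 alone was above background, by at least 22.5-fold over either other line, and the MCF10A value lay just under the background. The other gelatinase, MMP9, which is known as an inducible enzyme of leukocytes and tumour cells, stayed between 12.7 and 15.5, under background in every line.

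Of 8 matrilysins and other secreted MMPs, 2 were above background. MMP7, the matrilysin of glandular epithelium, was at 399 in HT-29, 44.95 in MDA-MB-436 and 10.5 in MCF10A. HT-29 was the high line, 8.88-fold over MDA-MB-436 and at least 13.3-fold over MCF10A, while the MDA-MB-436 value was only at least 1.503-fold over MCF10A. MMP28, or epilysin, an MMP of keratinocytes and other epithelia, was at 24.4 in HT-29, 22.1 in MDA-MB-436 and 161 in MCF10A. It was under background in both cancer lines and at least 5.37-fold lower there than in MCF10A. The macrophage elastase MMP12, the enamel protease MMP20 and MMP19, MMP21, MMP26 and MMP27 lay between 2.999 and 23.05.

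In the RefSeq order of protein-coding genes, MMP7, MMP20, MMP27, MMP8, MMP10, MMP1, MMP3, MMP12 and MMP13 are neighbours on chromosome 11. Of these 9 genes, only MMP7 and MMP1 were above background on any array, and each had a different high line. The genes on either side of the run were above background in all lines. TMEM123, next to MMP7, was at 2466 in HT-29, 1380 in MDA-MB-436 and 1813 in MCF10A, and DCUN1D5, next to MMP13, was at 579, 321 and 1028 in the same lines. The 7 others lay between 2.81 and 19.8, with MMP13 in HT-29 the highest of these values.

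**Figure D4:**
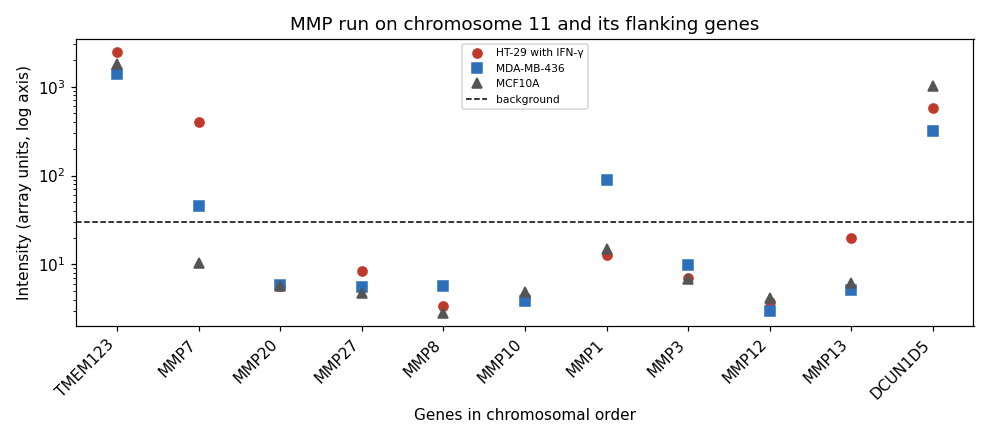
Intensity on a log axis of the 9 neighbouring MMP genes on chromosome 11, in RefSeq order between their flanking genes TMEM123 and DCUN1D5, with 1 point per line and the background as a dashed line. MMP7 in HT-29 (399) and MDA-MB-436 (44.95) and MMP1 in MDA-MB-436 (89.5) lie above the line, and the other MMP points lie under it.

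The upstream windows of MMP7, high in HT-29, and of MMP10, under background in every line, are set side by side because they come from the same run of genes. MMP7 is at chr11:102530748-102530997 and MMP10 at chr11:102780629-102780878, both on the minus strand, with capitals as above.
MMP7: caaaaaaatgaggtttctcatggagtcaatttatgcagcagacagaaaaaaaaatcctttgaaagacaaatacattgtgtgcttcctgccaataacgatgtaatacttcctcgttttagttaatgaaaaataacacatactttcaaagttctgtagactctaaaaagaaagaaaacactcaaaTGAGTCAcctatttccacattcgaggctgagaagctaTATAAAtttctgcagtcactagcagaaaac
MMP10: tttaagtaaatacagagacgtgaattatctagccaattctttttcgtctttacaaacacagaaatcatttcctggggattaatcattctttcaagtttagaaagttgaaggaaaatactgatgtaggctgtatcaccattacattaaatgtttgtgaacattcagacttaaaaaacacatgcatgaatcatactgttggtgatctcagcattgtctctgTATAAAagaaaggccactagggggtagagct
Both windows held the TATA letters, beginning 30 bases before the start in MMP7 and 31 bases before it in MMP10. MMP7 held the AP-1 letters as well, beginning 67 bases before its start. It was the 1 member of the 32 with a listed window that did, or 3.125%, where 4.16% of all windows held them. MMP1, MMP3, MMP12 and MMP13 of the same run had no listed window, so their letters are not known here. Neither held a GC box match, and they had 3 and 2 CG dinucleotides.

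Membrane-type MMPs act at the cell surface, and 5 of 6 were above background on an array, in different lines. MMP14, which cuts collagen around invading cells and activates the MMP2 precursor, was at 21.1 in HT-29, 19.0 in MDA-MB-436 and 157 in MCF10A. It was under background in both cancer lines, at least 5.26-fold lower than in MCF10A. MMP16, a related enzyme that can also activate the MMP2 precursor, was at 4.98 in HT-29, 315 in MDA-MB-436 and 21.3 in MCF10A. MDA-MB-436 was the only line with MMP16 above background, at least 10.5-fold higher than the others, and it was also the only line with MMP2 above background.

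MMP15 was at 90.8 in HT-29, 23.0 in MDA-MB-436 and 25.05 in MCF10A, and HT-29 was at least 3.03-fold higher than either mammary line. Its measured log2 difference between HT-29 and MDA-MB-436 was 1.98, just short of a call. MMP24, known from the nervous system, was at 53.8 in HT-29, 25.0 in MDA-MB-436 and 22.5 in MCF10A. MMP25, a lipid-anchored enzyme of leukocytes, was at 36.5, 30.4 and 26.7 in the same lines, and MMP17 was under background in all of them. All of these values were under 101.

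The upstream window of MMP14, one of the genes high in MCF10A, is at chr14:22836335-22836584 on the plus strand and is shown with the same capitals.
MMP14: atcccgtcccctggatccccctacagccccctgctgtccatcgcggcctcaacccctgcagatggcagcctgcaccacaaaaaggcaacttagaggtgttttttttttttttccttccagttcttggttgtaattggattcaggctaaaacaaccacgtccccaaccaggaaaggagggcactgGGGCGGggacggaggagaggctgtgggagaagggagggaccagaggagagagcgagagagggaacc
It held 1 GC box match, neither the AP-1 nor the TATA letters, and 7 CG dinucleotides.

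Among ADAMs that carry the zinc-binding motif of an active protease, 6 of the 8 measured were above background on an array. ADAM9, a widely expressed protease that sheds surface proteins, was at 584 in HT-29, 487 in MDA-MB-436 and 864 in MCF10A. ADAM15, which carries an integrin-binding sequence, was at 411 in HT-29, 314 in MDA-MB-436 and 788 in MCF10A. Both were above 101 in every line and highest in MCF10A, with differences of at most 1.77-fold and 2.51-fold. ADAM19, a sheddase of neuregulin, was at 172 in HT-29, 107 in MDA-MB-436 and 58.5 in MCF10A, 2.94-fold apart at most.

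ADAM12, a protease linked to mesenchymal and fetal tissue, was at 15.8 in HT-29, 112 in MDA-MB-436 and 26.6 in MCF10A. Only MDA-MB-436 was above background, at least 3.74-fold over either other line. ADAM28, known from lymphocytes and epithelia, was at 41.2 in HT-29, 12.3 in MDA-MB-436 and 7.17 in MCF10A, so that HT-29 was called higher than MCF10A at 5.75-fold by measured intensity but at least 1.38-fold against the background. ADAM33 was between 36.9 and 39.4 in the 3 lines. ADAM20 and ADAM30, known from testis, were between 4.46 and 15.0.

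Of 6 measured ADAMs that lack a complete zinc-binding motif, 3 were above background. ADAM23, a neural adhesion protein, was at 8.50 in HT-29, 85.9 in MDA-MB-436 and 9.03 in MCF10A. ADAM22, a neuronal receptor of the LGI1 protein, was at 20.4 in HT-29, 46.9 in MDA-MB-436 and 5.19 in MCF10A. In both cases only MDA-MB-436 was above background, at least 2.87-fold over the other lines for ADAM23 and at least 1.57-fold for ADAM22, and no value reached 101. ADAM11, the third, was between 39.5 and 45.1. ADAM18, ADAM29 and ADAM32 were between 2.69 and 14.3, and the pseudogene ADAM5 between 3.82 and 4.17. On chromosome 8, ADAM9 stands next to ADAM32 and ADAM18 in the order of protein-coding genes, and of these 3 only ADAM9 was above background.

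Of the ADAMTS enzymes, 11 of 17 were above background on an array: 5 in HT-29, 10 in MDA-MB-436 and 4 in MCF10A. Most of these values were dim, and above 60.6 there were 0 in HT-29, 3 in MDA-MB-436 and 0 in MCF10A. ADAMTS9, which cuts the proteoglycans versican and aggrecan, was at 14.6 in HT-29, 240 in MDA-MB-436 and 15.4 in MCF10A. MDA-MB-436 was at least 8.03-fold over the other lines, which were both under background. ADAMTS2, which removes the amino-terminal propeptide of procollagens, was at 50.4 in HT-29, 124 in MDA-MB-436 and 52.6 in MCF10A, so MDA-MB-436 was 2.46-fold over HT-29 and 2.35-fold over MCF10A.

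ADAMTS16 was at 25.8 in HT-29, 76.5 in MDA-MB-436 and 18.9 in MCF10A, at least 2.56-fold over each of the other lines. ADAMTS15, another proteoglycanase, was at 23.0 in HT-29, 50.7 in MDA-MB-436 and 23.7 in MCF10A. Both were above background in MDA-MB-436 alone, and so were ADAMTS10, ADAMTS12 and ADAMTS14, at 32.6, 33.99 and 36.5. ADAMTS8 was above background in all lines, at 55.0 in HT-29, 38.4 in MDA-MB-436 and 42.1 in MCF10A, as was ADAMTS13, which cuts von Willebrand factor, at 36.2, 30.7 and 31.1. ADAMTS4, the aggrecanase, was at 41.6 in HT-29, 29.0 in MDA-MB-436 and 33.0 in MCF10A, and ADAMTS6 at 41.8, 32.3 and 19.4. ADAMTS1, ADAMTS3, ADAMTS5, ADAMTS17, ADAMTS18 and ADAMTS19 were under background in every line.

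Proteins that activate, inhibit or induce MMPs were next examined as a list, of which 18 of 20 were measured. In MDA-MB-436 against MCF10A, 4 were called higher and 2 lower, where 3.65% and 2.01% of all genes were called. The median log2 difference was 0.13 over the list and 0.018 over all genes. PLAU, the urokinase that produces plasmin, was at 29.5 in HT-29, 1026 in MDA-MB-436 and 179 in MCF10A, so MDA-MB-436 was 5.75-fold over MCF10A. PLAT, the other plasminogen activator, was at 24.3 in HT-29, 119 in MDA-MB-436 and 552 in MCF10A, so the 2 activators had opposite orders in the mammary lines. The proteoglycan gene SPOCK1 was 11.8-fold over its MCF10A level in MDA-MB-436, the serpin gene SERPINE2 8.69-fold and the proprotein convertase gene PCSK5 at least 4.02-fold. ST14, the epithelial protease matriptase, was at 1254 in HT-29, 17.9 in MDA-MB-436 and 663 in MCF10A, with MDA-MB-436 at least 22.2-fold under MCF10A.

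In HT-29 against MCF10A, 1 gene of this list was called higher and 2 lower, where 4.34% and 3.5% of all genes were called. Against MDA-MB-436, 2 were higher and 5 lower, where 4.21% and 4.68% of all genes were called. PLAU was at least 5.97-fold lower in HT-29 than in MCF10A and at least 34.3-fold lower than in MDA-MB-436. RECK, a membrane-anchored inhibitor of MMPs, was at 15.8 in HT-29, 105 in MDA-MB-436 and 42.6 in MCF10A. FURIN, which activates membrane-type MMPs and ADAMs, was at 296 in HT-29, 206 in MDA-MB-436 and 244 in MCF10A, and BSG, an inducer of MMPs, was at 1565, 1780 and 2218 in the same lines; neither was called. The meprin gene MEP1B was called higher in HT-29 in both comparisons, but its value of 31.4 was only at least 1.05-fold over the background.

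Of 12 cofactors and regulators of ADAM10 and ADAM17, 11 were measured. In MDA-MB-436 against MCF10A 1 was called higher and 1 lower (3.65% and 2.01% of all genes). The counts were 2 higher and 1 lower in HT-29 against MCF10A (4.34% and 3.5% of all genes), and 1 higher and 1 lower in HT-29 against MDA-MB-436 (4.21% and 4.68% of all genes). TSPAN15, a tetraspanin that binds ADAM10, was at 2145 in HT-29, 262 in MDA-MB-436 and 52.2 in MCF10A, with all 3 lines at least 5-fold apart. RHBDF1, a rhomboid-like protein that carries ADAM17 to the surface, was 6.63-fold higher in HT-29 than in MCF10A. SFRP1, a WNT antagonist that also inhibits ADAM10, was at 27.2 in HT-29, 132 in MDA-MB-436 and 1596 in MCF10A, the same order of lines as TIMP3. The other tetraspanins of the list, TSPAN5, TSPAN10, TSPAN14, TSPAN17 and TSPAN33, were not called in any comparison.

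Of 30 substrates of sheddases, 26 were measured, with 2 called higher and 3 lower in MDA-MB-436 against MCF10A (3.65% and 2.01% of all genes). In HT-29, 2 were higher and 3 lower against MCF10A (4.34% and 3.5% of all genes), and 5 were higher and 4 lower against MDA-MB-436 (4.21% and 4.68% of all genes). EPGN, an EGF receptor ligand, was at 4.75 in HT-29, 5.95 in MDA-MB-436 and 773 in MCF10A, and EREG, another ligand of that receptor, was at 3255, 961 and 266 in the same lines. The membrane chemokine gene CX3CL1 was at 1073 in HT-29, 20.4 in MDA-MB-436 and 29.97 in MCF10A. The adhesion molecule gene L1CAM was at 19.0 in HT-29, 473 in MDA-MB-436 and 47.8 in MCF10A, 9.90-fold higher in MDA-MB-436 over the other mammary line. The cadherin gene CDH1 was at 1607 in HT-29, 10.3 in MDA-MB-436 and 716 in MCF10A. In MDA-MB-436 it was at least 53.7-fold under HT-29 and at least 23.9-fold under MCF10A. CDH2, another cadherin gene, was at 12.3, 708 and 33.9 in the same lines. HBEGF, TGFA, CXCL16, MICB and AXL were also called in a comparison. The amyloid precursor protein gene APP lay between 2376 and 2618 in the 3 lines.

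Of 18 ADAMTS-like proteins and ADAMTS substrates, 17 were measured, with 1 called higher and 1 lower in MDA-MB-436 against MCF10A (3.65% and 2.01% of all genes). In HT-29, 0 were higher and 2 lower against MCF10A (4.34% and 3.5% of all genes), and 0 were higher and 3 lower against MDA-MB-436 (4.21% and 4.68% of all genes). VCAN, the versican gene, was at 11.3 in HT-29, 110 in MDA-MB-436 and 370 in MCF10A, and was thus highest in a line where ADAMTS9 was under background. The fibrillin genes FBN1 and FBN2 had opposite orders in the mammary lines: FBN1 was at 8.84 in HT-29, 337 in MDA-MB-436 and 28.7 in MCF10A, and FBN2 at 12.7, 82.7 and 366 in the same lines. None of the 5 measured ADAMTS-like and papilin genes was called in any comparison.

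Upstream sequence was compared over the 32 members with a window in the RefSeq table. MMP1, MMP2, MMP16 and ADAMTS9 were among the members without one. The 19 that were above background on an array had a median of 25 CG dinucleotides in 250 bases, and 16 of them, 84.2%, held the GC box letters. The 13 that were under background on all arrays had a median of 4 CG dinucleotides, and 4 of them, 30.8%, held those letters. Over all 27305 windows the median was 11, and 42.3% held the GC box letters. The TATA letters were found in 2 of the 19 and 5 of the 13, or 10.5% and 38.5%, where 11.1% of all windows held them. The difference was not uniform, since MMP7 was above background with 3 CG dinucleotides and ADAMTS3 was under it with 30. These counts were not tested, and neighbouring MMP genes on chromosome 11, which resemble one another, make up 4 of the 13. Of the 19, ADAM22, ADAM23, ADAMTS6, ADAMTS10, ADAMTS12, ADAMTS13, ADAMTS14, MMP11, MMP15 and MMP24 did not exceed the highest olfactory receptor value on any array. Whether these genes belong above background is therefore unsure. The windows of all genes were not split by background, so whether the difference is particular to these members was not tested.

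**Figure D5:**
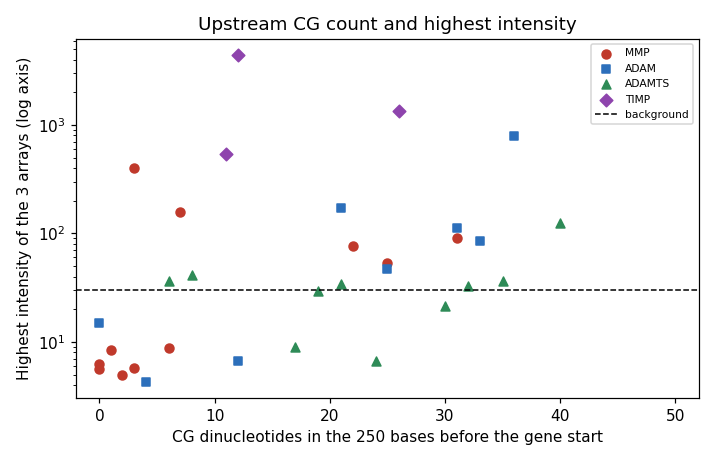
CG dinucleotides in the 250 bases before the gene start (horizontal axis) against the highest intensity of the 3 arrays (log axis) for the 32 members with a listed window, by family, with the background as a dashed line. Points under the line gather at low CG counts, apart from several ADAMTS genes such as ADAMTS3 at 30, and MMP7 stands above the line at 3.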

How the data were processed

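Biotin-labelled RNA of 3 cell lines was measured on exon arrays, per the labels' protocols. The authors deposited 1 linear intensity per array for each of 18708 transcript clusters; summary, background correction and normalization are not given in the sources used here, and the genome build hg19 is named in the submitters' processing notes. Clusters were named from the platform annotation, updated by gene identifier against RefSeq GRCh38.p14 (14705 of 14733 clusters with a single symbol matched; 2875 with several symbols were not named and 1100 were unnamed). The brightest cluster by mean over the 3 arrays was kept, giving 14410 genes. Log2 differences were taken between arrays, with calls at 4-fold and the higher intensity above 29.9; dimmer values under it give lower bounds. The number of arrays, 1 per line, limits the precision, and no test was run.

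The members and lists were chosen with earlier results of these data known. All members are named, and those called, or above 500 on any array, are given in full. In the lists of MMP regulators, ADAM cofactors, sheddase substrates and ADAMTS-like proteins and substrates, the called genes are named, not all with their values. Other settings tried were no filter, median centring, quantile normalization, the 99th percentile as background, folds of 2 and 8, the median over clusters, platform symbols, and values under background set to it. The counting step was tested on simulated data in which only genes far above background were changed. That test does not cover calls near the background, where many members lay. Promoter motifs were searched on both strands, with overlaps counted. Tables were made with pandas 2.3.3 and numpy 2.4.6 in Python 3.11.15, and figures with matplotlib 3.10.9.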

Additional observations from a re-analysis of the deposited data

Results flagged for a closer look

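Signal above background was also present in clusters that the comparisons do not use. A second, dimmer cluster of MMP16 had intensities of 20.2 in HT-29, 144 in MDA-MB-436 and 20.0 in MCF10A, so MDA-MB-436 was the high line on both clusters of the gene. A second cluster of ADAMTS6 was at 46.3 in HT-29, 27.8 in MDA-MB-436 and 16.2 in MCF10A, in the same order of lines as the cluster used. A cluster listed as MMP23A, whose symbol ends in a letter and so falls outside the choice of members, was at 95.9 in HT-29, 93.5 in MDA-MB-436 and 103 in MCF10A.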

How the results depend on the processing

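In MDA-MB-436 minus MCF10A, the 10 members called higher were 6 at an 8-fold threshold (1.67% of all genes) and 4 with values under background set to it (2.13%). Quantile normalization and median centring left 7 (3.25% and 3.4% of all genes), without MMP7, ADAM12 and ADAMTS16, and median centring moved the median of all clusters by -0.11 on the log2 scale. In HT-29 minus MCF10A, the 3 called higher were 7 at 2-fold (10.2% of all genes), and the 3 called lower were 1 at 8-fold (1.64%). In HT-29 minus MDA-MB-436, the 1 called higher was 2 after quantile normalization (4.18%) and after median centring (4.52%), with MMP15 added, and 4 at 2-fold (11.5%). The 7 called lower were 13 at 2-fold (11%), 4 at 8-fold (2.3%) and 4 with values under background set to it (3.15%). With the background at the 99th percentile, 8 members were above it in HT-29, 16 in MDA-MB-436 and 7 in MCF10A. Under quantile normalization the median over members was 0.019 in place of 0.27 in MDA-MB-436 minus MCF10A and -0.15 in place of 0.054 in HT-29 minus MCF10A, and with values under background set to it all 3 medians were 0. No called difference of a single member changed sign under quantile normalization, median centring, the median over clusters or the floor. Log2 differences of olfactory receptor genes had SDs between 0.76 and 0.80, and 4, 7 and 8 of the 228 differed by 4-fold without the background filter in MDA-MB-436 minus MCF10A, HT-29 minus MCF10A and HT-29 minus MDA-MB-436. No paired analysis was possible because each line had 1 array. Values under 101 cannot be told from the brightest olfactory receptor signal, and no replicate spread exists.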
